A study of Mus musculus with 10 samples.

Results

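The genes described here are 10 core and output genes of the circadian clock, Arntl, Clock, Per1, Per2, Per3, Cry1, Nr1d1, Nr1d2, Dbp and Tef. They were chosen by gene name from the 24391 gene names in the count tables, and all 10 had enough counts to be tested. They were followed in the bilateral whole hippocampus of 10 male mice aged 10 to 14 weeks (strain written C56BL/6J in the study's methods), with 1 RNA-seq library per mouse, 4 days after surgery. In the 4 SAH mice, subarachnoid hemorrhage was produced under isoflurane by a filament that perforated the circle of Willis on 1 side, and mice without a large drop in cortical blood flow were not used. The 3 Sham mice had the same operation except that the artery wall was left intact, and the 3 Naive mice had no surgery. No transgene or deletion is named for any group, the animals lived on a day and night cycle, and mice of the same batch were assigned to the groups at random. Clock genes change with the time of day, so they also bear on when tissue was taken. The hour at which each mouse was killed is not given in the sources used here, and it and the group cannot be told apart.

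In the clock, the proteins of Arntl (also called Bmal1) and Clock pair up and bind E-box sequences in the DNA of their target genes. Their targets include the Per and Cry genes, whose proteins return to the nucleus and repress the pair, and Nr1d1 and Nr1d2, whose proteins REV-ERB alpha and beta repress Arntl. Dbp and Tef encode transcription factors that bind D-box sequences and carry the rhythm to output genes. In mouse tissues Arntl peaks at roughly the opposite time of day to Dbp, the Per genes and Nr1d1, while Clock itself varies little. Per1 is also known to respond quickly to glucocorticoids and to neuronal activity.

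Promoter sequence shows which members carry these elements close to their starts. Windows from 250 bases before to 50 bases after each start were read from a table of RefSeq promoters (GRCm38.p6) for 9 of the 10 members, and the window of Per2 is not analysed here. The E-box CACGTG was found in the windows of Cry1, Per1 and Tef, and in 7.15% of all 32851 windows. The related form CACGTT, searched like all motifs on both strands, was found in Cry1 and Nr1d1 as AACGTG on the strand of the gene, in Cry1 without overlap with its E-box, and in 4.68% of all windows. The D-box form TTATGTAA was found 2 times before the start of Per3 and in 0.938% of all windows. The sequence TAGGTCA, to which ROR and REV-ERB proteins bind, was found in 1 window of Arntl, after the start, and in 2.61% of all windows. The D-box form TTACGTAA, the cAMP response element TGACGTCA and the palindromic glucocorticoid response element were found in no member's window and in 0.119%, 1.79% and 0.00913% of all windows. The stretches around the matches that lie before a start are printed below, 5′ to 3′ along the strand of the gene, with the matches in capitals, since these genes are compared with each other further on. They lie at chr10:85185069-85185173, minus strand (Cry1), chr11:69098743-69098828, plus strand (Per1), chr15:81802506-81802591, plus strand (Tef, first start), chr15:81811236-81811321, plus strand (Tef, second start), chr11:98775378-98775445, minus strand (Nr1d1) and chr4:151044776-151044910, minus strand (Per3). A match is a description of these letters and does not show that a factor was bound.
Cry1: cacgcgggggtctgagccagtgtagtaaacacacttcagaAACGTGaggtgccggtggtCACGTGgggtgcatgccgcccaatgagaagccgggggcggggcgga
Per1: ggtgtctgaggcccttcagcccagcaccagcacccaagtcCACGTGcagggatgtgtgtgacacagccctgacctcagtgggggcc
Tef, first start: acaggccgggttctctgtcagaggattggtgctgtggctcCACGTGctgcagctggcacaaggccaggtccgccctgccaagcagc
Tef, second start: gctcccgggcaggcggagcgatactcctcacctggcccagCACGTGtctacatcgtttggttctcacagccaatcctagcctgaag
Nr1d1: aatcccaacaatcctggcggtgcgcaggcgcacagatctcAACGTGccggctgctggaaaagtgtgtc
Per3: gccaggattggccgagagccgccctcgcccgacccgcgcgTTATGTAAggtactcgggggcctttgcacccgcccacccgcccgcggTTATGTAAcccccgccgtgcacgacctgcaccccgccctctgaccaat

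Library totals ran from 19743388 to 27254655 counts per mouse, and the members had between 223 and 9375 counts in a mouse, with a mean counting error over the mice from 1.09% of the value for Tef to 6.01% for Cry1. All 8 listed markers of hippocampal neurons were detected, with a summed level of 2798 to 2938 CPM (counts-per-million, scaled to library size after TMM normalization) in the 10 mice and no gene past the threshold between SAH and control. Markers of other cell types did move, in a comparison where 3.13% of all genes were called higher and 1.54% lower. The 6 oligodendrocyte markers all fell in SAH, with a sum of 4550 to 5832 CPM in SAH, 6701 to 9307 in Sham and 7727 to 8341 in Naive. Endothelial and astrocyte markers had 3 of 6 and 1 of 6 genes higher and microglia markers 2 of 6, with sums of 117 to 225, 2710 to 3734 and 359 to 434 CPM in SAH, 99.5 to 115, 2569 to 2809 and 349.6 to 372 in Sham, and 99.5 to 138, 2581 to 2719 and 332 to 354 in Naive. The choroid plexus markers summed to 101 to 1218 CPM in SAH, 56.7 to 822 in Sham and 43.9 to 67.0 in Naive. Of these 6 genes 0 passed the threshold in SAH against control, with 2 at an unadjusted p under 0.05 (17.0% of all genes). In SAH against Naive 2 were called higher, where 2.99% of all genes were called in either direction. No gene of these lists was at 0 in every mouse. Their part in the clock gene values was not tested, and in whole tissue fewer cells of a type and less RNA per cell cannot be told apart. SAH mouse 3 stood apart from the other libraries. Of all genes tested, 24.8% were highest and 26.3% lowest in this 1 of 10 mice.

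The question put to the clock genes was whether their levels differed between SAH and control, the 6 Sham and Naive mice together, or among the 3 groups. None of the 10 passed an adjusted p of 0.10 in SAH against control (edgeR's quasi-likelihood test, Benjamini-Hochberg over 14993 genes), where 4.68% of all genes tested were called. At an unadjusted p under 0.05 there were 4 of 10 (Nr1d2, Tef, Per3 and Cry1, all higher in SAH), against 17.0% of all genes tested in either direction and 9.13% higher, and DESeq2 on the same counts called 1, Nr1d2, against 6.87% of all genes with DESeq2. The log2 fold changes lay between −0.13 for Arntl and 0.26 for Per3, and the 95% intervals reached at the lowest −0.45, for Per1, and at the highest 0.48, for Per3. A change of 1 on the log2 scale was thus outside the interval of each member. The median log2 fold change of the members was 0.14, against −0.002 for all genes tested, and the median of its size was 0.14 against 0.081. In none of the members did the 4 SAH mice lie entirely beyond the 6 control mice in CPM, which held for 5.2% of all genes tested.

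**Figure D1:**
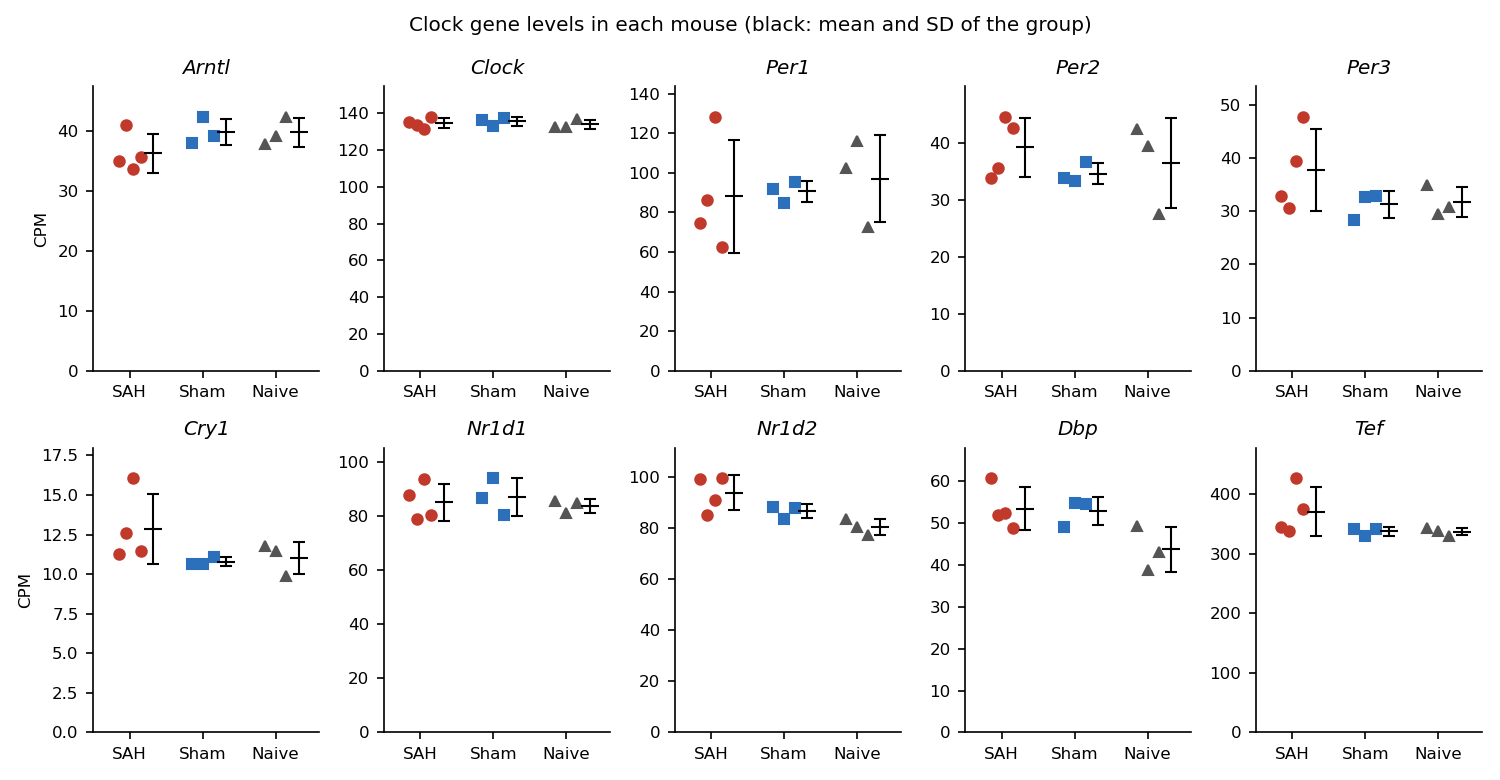
Level of each clock gene in CPM (vertical axes, linear from 0) in the 4 SAH, 3 Sham and 3 Naive mice. Each point is a mouse and the black bar gives the mean and SD of the group; the groups of SAH and control mice overlap for all 10 genes, and Clock is almost level at 132 to 138 CPM.

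Of the activators, Arntl (chromosome 7, 120350979 to 120457640 in mm9, plus strand), whose loss on its own abolishes the rhythm, had 35.0, 40.9, 33.5 and 35.6 CPM in SAH mice 1 to 4. It had 37.9, 42.3 and 39.1 CPM in Sham mice 5 to 7 and 37.7, 39.1 and 42.4 CPM in Naive mice 8 to 10. SAH mice 1, 3 and 4 lay below every control mouse and SAH mouse 2 lay among the highest. SAH mice averaged 36.2 ± 3.23 CPM (SD, n = 4) against 39.8 ± 2.07 CPM for control mice (SD, n = 6). This was a log2 fold change of −0.13 (95% interval −0.26 to 0.001, adjusted p = 0.299), and −0.094 without SAH mouse 3.
Clock (chromosome 5, 76638893 to 76733817, minus strand), the partner of Arntl, averaged 134.5 ± 2.80 CPM over the SAH mice (SD, n = 4) and 134.7 ± 2.29 CPM over control mice (SD, n = 6). All 10 mice lay between 132 and 138 CPM. Its log2 fold change was −0.003 with an interval of −0.072 to 0.066 (adjusted p = 0.978).

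Among the repressors, Per1 varied most. Per1 (chromosome 11, 68912458 to 68923459, plus strand) had 74.9, 86.4, 128 and 62.7 CPM in SAH mice 1 to 4, 91.6, 84.7 and 95.4 CPM in Sham mice 5 to 7, and 102, 116 and 72.8 CPM in Naive mice 8 to 10. SAH mice held both the highest and the lowest value of the 10, SAH mouse 3 and SAH mouse 4. Its log2 fold change of −0.092 (interval −0.45 to 0.26, adjusted p = 0.806) became −0.32 without SAH mouse 3 and 0.041 without SAH mouse 4, so its sign rested on single mice.
Per2 (chromosome 1, 93312559 to 93355905, minus strand) had 33.8, 35.6, 44.6 and 42.6 CPM in SAH mice 1 to 4, 33.8, 33.3 and 36.6 CPM in Sham mice and 42.4, 39.4 and 27.5 CPM in Naive mice 8 to 10. SAH mice 3 and 4 were the highest of all and Naive mouse 10 was the lowest, as it was for Cry1 and, among control mice, for Per1. SAH against control gave a log2 fold change of 0.14 (interval −0.095 to 0.38, adjusted p = 0.545), which was 0.077 without SAH mouse 3 and also 0.077 without Naive mouse 10.
Per3 (chromosome 4, 150377764 to 150418774, minus strand) had 32.9, 30.7, 39.4 and 47.8 CPM in SAH mice 1 to 4 and between 28.4 and 34.9 CPM in the 6 control mice. SAH mice 1 and 2 lay within the control range and SAH mice 3 and 4 above it. This gave a log2 fold change of 0.26 (interval 0.029 to 0.48, adjusted p = 0.238) which was 0.12 without SAH mouse 4.
Cry1 (chromosome 10, 84594445 to 84647799, minus strand), whose protein is a direct repressor of the Arntl and Clock pair, had 11.3, 12.6, 16.1 and 11.4 CPM in SAH mice 1 to 4 and 9.89 to 11.8 CPM in control mice. SAH mouse 3 was the highest of all 10. The log2 fold change of 0.23 (interval 0.020 to 0.44, adjusted p = 0.249) was 0.11 without that mouse.

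The 2 REV-ERB genes are described next. Nr1d1 (chromosome 11, 98629246 to 98636691, minus strand) had 87.8, 78.9, 93.9 and 80.7 CPM in SAH mice 1 to 4, 86.9, 94.2 and 80.5 CPM in Sham mice and 85.9, 81.1 and 84.8 CPM in Naive mice. The 3 groups overlapped, with the Naive mice inside the ranges of both other groups, and the log2 fold change was −0.006 (interval −0.13 to 0.12, adjusted p = 0.969).
Nr1d2 (chromosome 14, 19036570 to 19071620, minus strand) had 99.3, 85.4, 91.3 and 99.7 CPM in SAH mice 1 to 4, 88.5, 83.6 and 88.0 CPM in Sham mice and 83.8, 80.5 and 77.5 CPM in Naive mice. SAH mice 1, 3 and 4 lay above every control mouse and SAH mouse 2 lay within the Sham range. Of the 10 members Nr1d2 came nearest to the threshold, with a log2 fold change of 0.17 (interval 0.052 to 0.28, adjusted p = 0.126 from edgeR) that ran from 0.14 to 0.21 with single mice left out. DESeq2 gave 0.17 with an adjusted p of 0.0694. Whether the 2 genes differed from each other in this was not tested.

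Of the output genes, Dbp (chromosome 7, 52960617 to 52965573, plus strand) had 60.8, 51.9, 52.3 and 48.8 CPM in SAH mice 1 to 4, 49.0, 54.9 and 54.7 CPM in Sham mice and 49.4, 38.8 and 43.1 CPM in Naive mice 8 to 10. The 2 lowest values were those of Naive mice 9 and 10, while SAH and Sham mice overlapped. SAH against control gave a log2 fold change of 0.14 (interval −0.056 to 0.34, adjusted p = 0.456), which was 0.076 without SAH mouse 1 and 0.089 without Naive mouse 9. Exons of Sphk2 on the opposite strand cover 32.1% of the exonic length of Dbp. The counting used the strand, and no other member shares exon bases with another gene of the tables.
Tef (chromosome 15, 81633103 to 81657293, plus strand) had 344, 338, 427 and 375 CPM in SAH mice 1 to 4, while the 6 control mice stayed between 329.6 and 343 CPM. SAH mice 3 and 4 were clearly above this narrow range, SAH mouse 1 just above it and SAH mouse 2 inside it. The resulting log2 fold change was 0.14 (interval 0.017 to 0.26, adjusted p = 0.231), and 0.064 without SAH mouse 3.

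Leaving out SAH mouse 2 was the single omission that brought members past the threshold in SAH against control. Nr1d2 (log2 fold change 0.21, adjusted p = 0.044), Per3 (0.34, adjusted p = 0.078) and Tef (0.18, adjusted p = 0.0984) were then higher by edgeR's test, and Arntl was lower (−0.20, adjusted p = 0.0792). Over all genes the same omission raised the calls from 470 higher and 231 lower to 686 and 407. Without SAH mouse 3 no member was called.

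With the 3 groups fitted together (15134 genes tested), 0 of 10 members differed in SAH against Sham (edgeR, against 0.72% of all genes), 0 also at an unadjusted p under 0.05 (9.69% of all genes) and 0 with DESeq2 (2.0% of all genes). Cry1 was the 1 member whose 4 SAH mice all lay above the 3 Sham mice (11.3 to 16.1 against 10.6 to 11.1 CPM), which held for 9.38% of all genes in either direction and 4.95% in this one, and its log2 fold change was 0.25 (interval −0.017 to 0.51, adjusted p = 0.553), and 0.13 to 0.30 with single mice left out. In SAH against Naive 0 of 10 were called, against 2.99% of all genes. There were 2 at an unadjusted p under 0.05, Nr1d2 and Dbp (14.8% of all genes), and DESeq2 called both, against 4.92% of all genes with DESeq2. Nr1d2 averaged 93.9 ± 6.90 CPM over the SAH mice (SD, n = 4) and 80.6 ± 3.12 CPM over the Naive mice (SD, n = 3). It was the 1 member with these groups apart, as were 13.7% of all genes in either direction and 6.92% in this one. Its log2 fold change was 0.22 (interval 0.088 to 0.35), with an adjusted p of 0.104 from edgeR and 0.0361 from DESeq2. It was called by edgeR without SAH mouse 2 (0.26, adjusted p = 0.0361) or SAH mouse 3 (0.23, adjusted p = 0.0667). Dbp averaged 53.5 ± 5.12 CPM over the SAH mice (SD, n = 4) and 43.8 ± 5.35 CPM over the Naive mice (SD, n = 3), with a log2 fold change of 0.28 (interval 0.087 to 0.48, adjusted p = 0.161). In the same comparison 2 of the 6 choroid plexus markers were called higher and all 6 had an unadjusted p under 0.05, with a median log2 fold change of 2.23, and their median in Sham against Naive was 1.62 with 0 called. Their part in the values of Nr1d2 and Dbp was not tested. The SAH mice are shared by the comparisons with Sham and with Naive. In Sham against Naive, which shares mice with both, 0 of 10 members were called, against 0.00661% of all genes (1 gene), 0 with DESeq2 (0.0132% of all genes) and 1 at an unadjusted p under 0.05 (2.02% of all genes). This was Dbp, at 52.9 ± 3.35 CPM (SD, n = 3) in Sham, with a log2 fold change of 0.27 (interval 0.059 to 0.48, adjusted p = 0.9998). No member's Sham and Naive mice were apart, against 8.91% of all genes. A test for any difference among the 3 groups called 0 of 10 (edgeR), against 1.86% of all genes, with Nr1d2 and Dbp at an unadjusted p under 0.05 (10.7% of all genes) and 0 called by DESeq2 (3.73% of all genes). The smallest adjusted p of a member was 0.245, for Nr1d2.

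**Figure D2:**
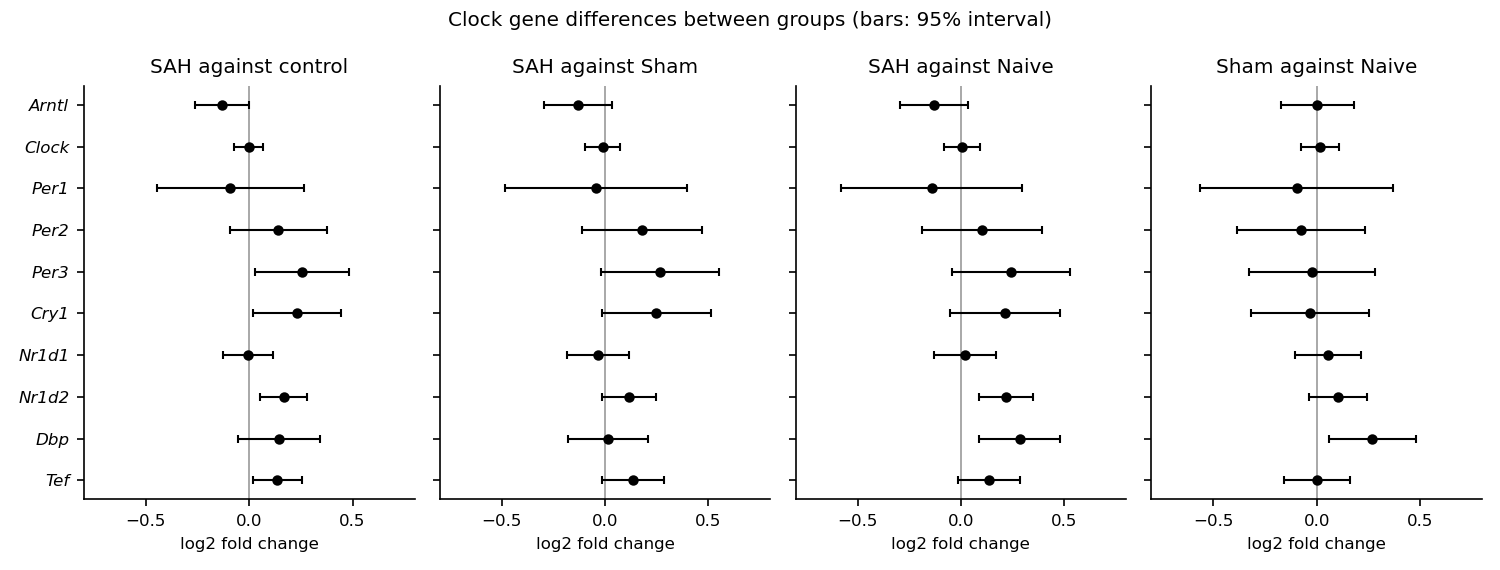
Log2 fold change of each clock gene (horizontal axes) in SAH against control, SAH against Sham, SAH against Naive and Sham against Naive, with the 95% interval as a bar. In SAH against control the intervals of the 10 genes reach from −0.45 (Per1) to 0.48 (Per3), and the narrowest is that of Clock.

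Per length of exon, levels over the 10 mice ran from 78.7 ± 6.63 CPM per kilobase (SD, n = 10) for Tef to 3.88 ± 0.565 for Cry1. Nr1d1 (30.9 ± 1.96) and Dbp (30.0 ± 3.69) followed Tef and did not differ beyond their spread, nor did Per1 (19.5 ± 4.26) and Nr1d2 (18.9 ± 1.58), nor Clock (13.6 ± 0.237) and Arntl (13.2 ± 1.04). Per2 (6.33 ± 0.905) and Per3 (5.62 ± 0.951) came last before Cry1 and also lay within each other's spread. The order thus ran from the output and REV-ERB genes over the activators to the Per2, Per3 and Cry1 repressors, with Per1 above them.

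How much the members varied between mice was set beside all genes tested. The ratio of the highest to the lowest of the 10 mice was 2.05 for Per1, 1.69 for Per3, 1.62 for Per2 and for Cry1, and 1.57 for Dbp. It was 1.30 for Tef, 1.29 for Nr1d2, 1.26 for Arntl, 1.19 for Nr1d1 and 1.05 for Clock. Within groups, the biological coefficient of variation that edgeR estimated (the spread between mice beyond counting error, drawn toward that of genes of like level) was 18.5% for Per1, which exceeded 89.4% of all genes tested. Per2 at 12.3%, Per3 at 11.95% and Cry1 at 10.5% also lay above the median of all genes, 8.03%. Dbp was close to it at 8.37%. Arntl at 7.04%, Tef at 6.96%, Nr1d1 at 6.65% and Nr1d2 at 5.90% lay below it, and Clock at 4.28% exceeded 0.139% of genes. Group by group, the coefficient of variation of the CPM itself, which includes counting error, was 17.4% in SAH, 2.52% in Sham and 9.15% in Naive for Cry1, and 20.4%, 8.20% and 8.83% for Per3. For Dbp it was 9.57%, 6.33% and 12.2% in the same groups, for Per1 32.4%, 6.00% and 22.7%, and for Per2 13.4%, 5.15% and 21.7%. Each value rests on 3 or 4 mice. The SAH values of Cry1 and Per3 include 1 mouse above the other SAH mice, SAH mouse 3 for Cry1 (16.1 CPM) and SAH mouse 4 for Per3 (47.8 CPM).

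**Figure D3:**
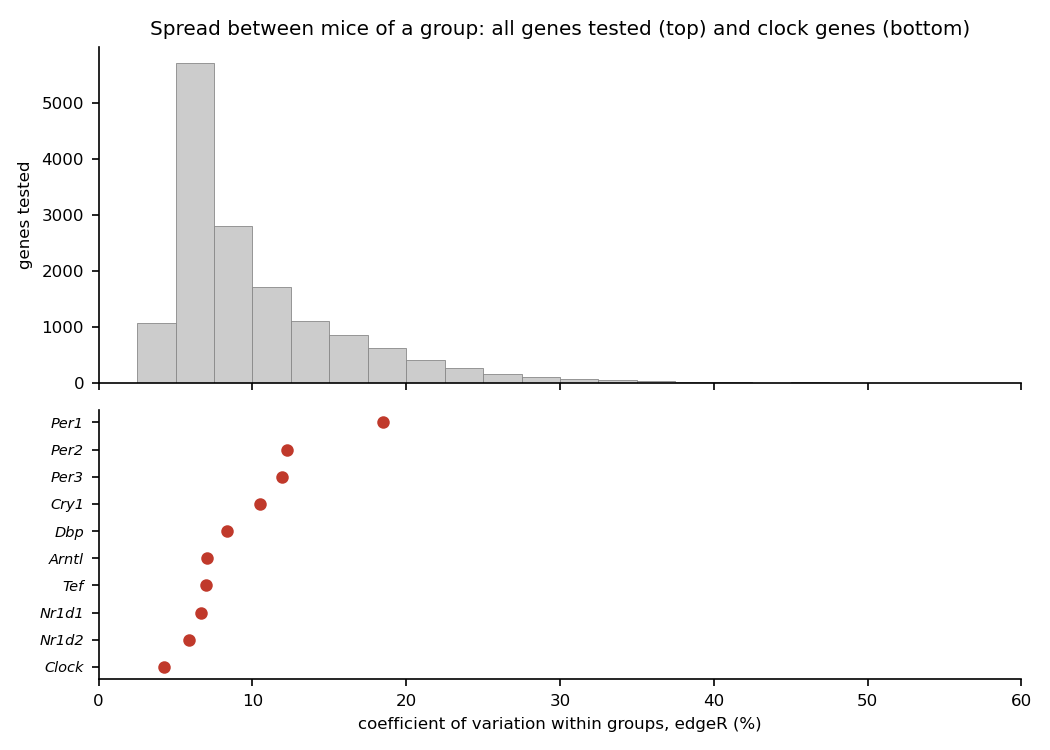
Upper panel: number of genes tested by their coefficient of variation within groups as estimated by edgeR (horizontal axis, percent). Lower panel: the same measure for the 10 clock genes, from 4.28% for Clock to 18.5% for Per1, set against a median of 8.03% over all genes.

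Arntl was then compared with the other 9 members across the 10 mice, as log2 CPM, together with 2 relations of Per1 (11 relations in all, p-values adjusted over them). Of the 9 relations, 2 passed an adjusted p of 0.10, both negative. Tef was lower where Arntl was higher, with r = −0.80 (permutation test, adjusted p = 0.00253) and rho = −0.94 (adjusted p = 0.00242). Without the 2 mice farthest from the median of Arntl, SAH mice 1 and 3, r was −0.88, and in the 6 control mice alone it was −0.96. In these 6 mice Tef had a coefficient of variation of only 1.76%, against a counting error of 1.10%, and this r is a description. With single mice left out of the 10, the r of Tef stayed past the threshold, at −0.90 to −0.76, the weakest without SAH mouse 3. With each group centred on its mean r was −0.68 and no longer past the threshold (permutation test, adjusted p = 0.184). Nr1d2 had r = −0.78 with Arntl (permutation test, adjusted p = 0.0422) and rho = −0.78 (adjusted p = 0.0592). It had r = −0.77 without the same 2 mice, −0.59 in control mice and −0.74 with groups centred (adjusted p = 0.153). Scaled by library size alone, Nr1d2 had r = −0.67 and was not past the threshold (permutation test, adjusted p = 0.108), nor was it without Naive mouse 10 (r = −0.72, adjusted p = 0.163).
Per2 (r = −0.67, adjusted p = 0.118 from the permutation test), Cry1 (r = −0.62, adjusted p = 0.118) and Per3 (r = −0.59, adjusted p = 0.158) had negative values that did not pass by r. By rank, Per2 passed (rho = −0.71, permutation test, adjusted p = 0.0984). Without SAH mouse 3 the value for Cry1 was −0.29. The values for Dbp (−0.31), Nr1d1 (−0.22), Per1 (−0.19) and Clock (0.07) were closer to 0 (adjusted p = 0.605, 0.714, 0.714 and 0.846, permutation test). Without SAH mouse 3 those of Clock, Per1 and Nr1d1 changed sign to −0.28, 0.23 and 0.14.

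**Figure D4:**
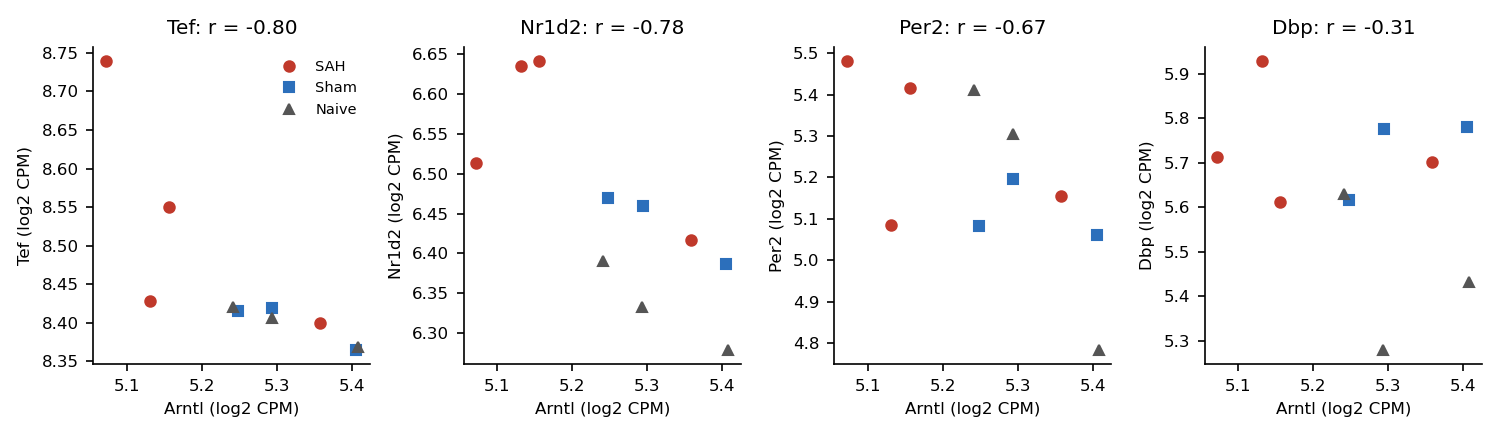
Tef, Nr1d2, Per2 and Dbp (vertical axes, log2 CPM) against Arntl (horizontal axes, log2 CPM), each point a mouse, with Pearson's r over the 10 mice. The points of Tef and Nr1d2 descend from left to right, with r = −0.80 and −0.78, and those of Dbp scatter, with r = −0.31.

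Among all 45 pairs of members, the closest were Cry1 and Tef (r = 0.85) and Per2 and Cry1 (r = 0.71), and 3 pairs were below −0.7, Arntl with Tef and with Nr1d2 and Clock with Per1. As a description, 11.1% of the member pairs were beyond 0.7 in either direction, against 7.34% of all pairs of genes tested, and the median size of r was 0.35 against 0.31. All pairs share the same 10 libraries. With groups centred on their means the closest pair was Per1 and Cry1 (r = 0.94), ahead of Cry1 and Tef (0.76) and Per2 and Cry1 (0.66). Over the undivided mice Per1 and Cry1 had r = 0.61, and 0.25 without SAH mouse 3. Cry1 and Tef, whose promoter stretches with an E-box are printed above, were both highest in SAH mouse 3, and without that mouse, a setting chosen after seeing the data, their r was 0.32 (0.69 for Per2 and Cry1, and −0.62 for Clock and Per1). The genes whose pattern over the 10 mice was most like that of Dbp were 4930412C18Rik, Smim8, Gm10790, Snai1 and Gypc (r = 0.92, 0.90, 0.89, 0.89 and 0.88), and the most opposite were Mgat5, Cacna2d2, Ncam1, AW822252 and Mapre2 (−0.91, −0.90, −0.88, −0.87 and −0.86). For Arntl they were Zxda, 2010107G23Rik, Scd3, Tmem200c and Gm3704 (0.95, 0.93, 0.91, 0.90 and 0.89) and Ebi3, Zdhhc17, Sh3tc1, Cenpa and Grn (−0.95, −0.91, −0.91, −0.90 and −0.90). These genes, and the nearest genes given below, are extremes picked from all genes tested over the same 10 mice. High values arise from such picking alone, and no test was made of them. Several had few counts, down to 3 in a mouse for Snai1. None of these is a clock gene of the lists used here, and in no case was another member the nearest of the genes tested to a member. The nearest gene to Tef was Abca1 (r = 0.98, and 0.92 without SAH mouse 3) and the nearest to Per1 was Dio2 (0.95 and 0.94).

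Of 19 other clock genes, all tested, 1 was higher and 1 was lower in SAH (edgeR, against control, where the calls were 3.13% of all genes higher and 1.54% lower). The median log2 fold change of the 19 was 0.02. Nfil3, whose protein E4BP4 binds the same D-box as DBP and TEF and represses, fell. It had 8.37, 8.31, 9.45 and 8.79 CPM in SAH mice 1 to 4 against 9.85 to 13.0 CPM in the 6 control mice, without overlap (2.37% of all genes were separate and lower). Its log2 fold change was −0.40 (interval −0.58 to −0.21, adjusted p = 0.0272), and it kept its call with any single mouse left out, at −0.43 to −0.36. Bhlhe41, which encodes the repressor DEC2, rose. It had 38.1, 35.8, 46.9 and 39.5 CPM in SAH mice 1 to 4 against 28.1 to 34.7 CPM in control mice, also without overlap (2.83% of all genes were separate and higher). Its log2 fold change was 0.31 (interval 0.14 to 0.48, adjusted p = 0.0617). The call of Bhlhe41 depended on several mice, being lost with SAH mouse 3 (0.23), SAH mouse 4 (0.32), Sham mouse 5 (0.31), Naive mouse 8 (0.29) or Naive mouse 9 (0.27) left out. In the fit of the 3 groups together both were called in SAH against Naive (Nfil3 −0.41, adjusted p = 0.0792, and Bhlhe41 0.38, adjusted p = 0.0677) and neither in SAH against Sham (−0.38, adjusted p = 0.188, and 0.24, adjusted p = 0.411). Fitted without the third group, with fewer mice in the test, neither was called against Sham or against Naive. Cry2, the paralog of Cry1, averaged 152.5 ± 10.8 CPM over the SAH mice (SD, n = 4) and 153.7 ± 5.23 CPM over control mice (SD, n = 6), and the interval of its log2 fold change was −0.11 to 0.088. Hlf, the third gene of the Dbp and Tef family, had a log2 fold change of −0.038 (interval −0.17 to 0.091). In Sham against Naive 0 of the 19 were called (edgeR, against 0.00661% of all genes), and 0 had an unadjusted p under 0.05 (against 2.02%). Cry2, Hlf and, below, Ciart and Sgk1 were chosen after their values were seen.

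SAH mouse 3 was the highest of all 10 mice for Per1, Per2, Cry1 and Tef and the lowest for Arntl and Clock, that is the highest for 4 of 10 members, against 24.8% of all genes. SAH mouse 4 was the highest for Per3, Nr1d2 and Clock, 3 of 10 members, against 14.0% of all genes. Ciart, a repressor driven by E-boxes, had 25.5 CPM in SAH mouse 3 and between 6.73 and 9.49 CPM in the other 9. Its log2 fold change in SAH against control was 0.55 (adjusted p = 0.358, edgeR) and −0.039 without SAH mouse 3. All 10 of the glucocorticoid-responsive genes listed were highest in SAH mouse 3. Fkbp5, a chaperone of the glucocorticoid receptor, had 146 CPM in it and between 42.4 and 77.8 CPM in the other mice, and Sgk1, a kinase, had 218 CPM against 61.6 to 124. Cdkn1a, a cell cycle inhibitor, had 67.6 CPM against 5.66 to 11.2 in the other mice. Of these 10 genes, 0 passed the threshold in SAH against control (edgeR, against 4.68% of all genes), 2 had an unadjusted p under 0.05 (against 17.0%), and the median log2 fold change was 0.25. The smallest p-values were those of Cdkn1a, Fkbp5 and Zbtb16, a transcription factor, at 1.51 (adjusted p = 0.164), 0.58 (adjusted p = 0.191) and 0.30 (adjusted p = 0.351) on the log2 scale. Without SAH mouse 3 they were at 0.096, 0.19 and 0.066. The part of these genes in the clock gene values was not tested.

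**Figure D5:**
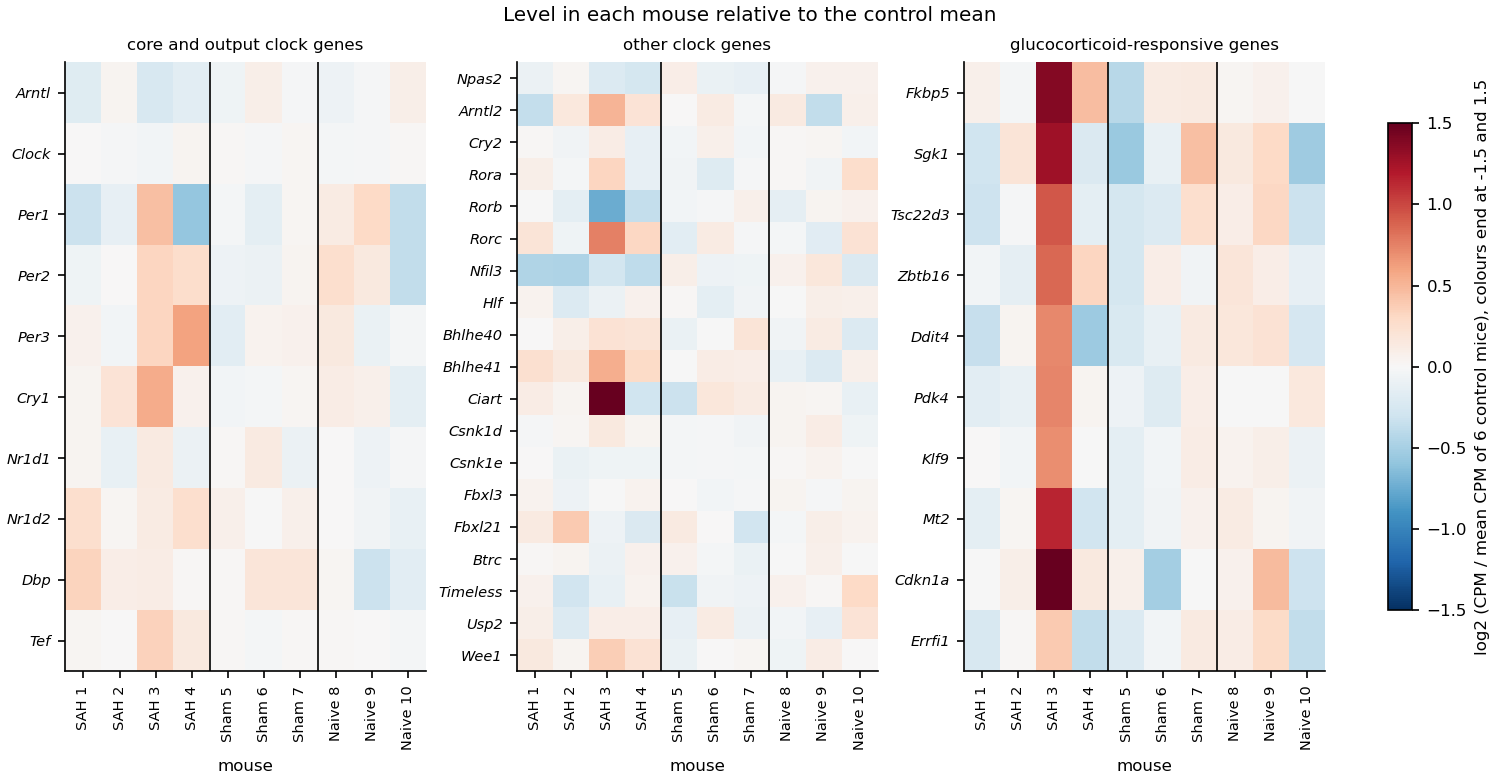
Log2 ratio of each gene's CPM in a mouse to the mean of the 6 control mice (colour scale) for the 10 core and output clock genes, 19 other clock genes and 10 glucocorticoid-responsive genes, with 1 column per mouse and lines between the groups. The column of SAH mouse 3 holds the highest value for all 10 glucocorticoid-responsive genes, for Ciart, and for 4 of the core and output genes.

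Because Per1 responds to neuronal activity, it was set beside the immediate early genes, of which 11 of 12 fell in SAH against control (edgeR, adjusted p under 0.10, where 1.54% of all genes were called lower), with a median log2 fold change of −0.89. The largest falls were those of Egr2 (−2.0, adjusted p = 0.00629), Fos (−1.57, adjusted p = 0.00375), Npas4 (−1.33, adjusted p = 0.00961) and Arc (−1.13, adjusted p = 0.0145), all genes induced within minutes of neuronal firing. Fos had 6.77 to 16.7 CPM in SAH mice and 24.2 to 47.4 CPM in control mice, whereas Per1 had 62.7 to 128 and 72.8 to 116 CPM. The Sham mice (24.2 to 30.1 CPM) and the Naive mice (33.2 to 47.4 CPM) were also apart in Fos, as were 8.91% of all genes. Fos was not called in that comparison (edgeR, log2 fold change −0.57, adjusted p = 0.9998). Since the values of Fos lie apart in all 3 groups, no r over all 10 undivided mice is given for Per1 and Fos. With each group centred on its mean, r was −0.12 over the 10 mice (permutation test, adjusted p = 0.859). As a description with groups undivided, r was 0.63 in the 6 control mice (exact permutation test, p = 0.181). It was 0.67 without SAH mice 3 and 4. SAH mouse 3 had the highest Per1 and the lowest Fos of the 10 mice. Per1 and Fkbp5 had r = 0.36 over the 10 mice (permutation test, adjusted p = 0.591) and rho = 0.091 (adjusted p = 0.813). Their r was 0.56 with groups centred, 0.098 in the 6 control mice and 0.005 without SAH mice 3 and 4.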

How the data were processed

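Total hippocampal RNA, depleted of ribosomal RNA, was made into stranded libraries. The authors used STAR for alignment to mm9 and counted read pairs with featureCounts 1.6.2 (reverse-stranded, exons summed by gene name, UCSC annotation), leaving out reads on several places or genes. The deposited values are raw counts of read pairs per gene name. From these counts CPM after TMM normalization and log2 CPM (prior count 2) were computed. All files were tested to hold whole numbers, and no 2 libraries agreed within sampling noise.

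The groups were those of the labels, each mouse 1 replicate. edgeR 4.0.16 (R 4.3.3, filterByExpr with minimum count 10, quasi-likelihood test, Benjamini-Hochberg, threshold 0.10) gave SAH against Sham and Naive pooled, and a 3-group fit gave the other comparisons. Intervals are 95% and come from the test's standard error. DESeq2 1.42.0 was an alternative, as were other scalings, filters, thresholds, control groups, a robust fit and leaving out each mouse. Correlations used 100000 permutations (Python 3.11.15, numpy 2.4.6, scipy 1.17.1). The edgeR script was tested on simulated data for SAH against control. It called 95% of 2-fold and 72% of 1.5-fold changes, and 12.6% of its calls were false. Changes smaller than 1.5-fold, such as those of the members, were not simulated.

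The members and lists were chosen with earlier results of these data known. Named genes were the 10 members and the called genes of the other clock, glucocorticoid-responsive, immediate early and temperature-responsive lists (at most 4, or the 3 with the smallest p). The 5 genes most like and unlike Dbp and Arntl over 10 mice were also named, beside those said to be chosen later. Abca1, Dio2, Tsc22d3 and the suprachiasmatic markers were named outside these rules. Gene lists were written from general knowledge. One listed name, an older symbol of Ciart, was not among the gene names. Reads, qPCR and protein data were not analysed here.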

Additional observations from a re-analysis of the deposited data

Results flagged for a closer look

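In 46 groups of mice (SAH and control, for 23 named genes), 4 had a highest or lowest mouse apart from the rest of its group by Dixon's gap rule. Chance flags about 1 in 20 groups that were picked without regard to their values, a rate that does not apply to this count, since Ciart was named after its values were seen and 3 of the 4 are values of the same mouse. None of the 4 was a value of the 10 core and output clock genes. Ciart, in SAH mouse 3, had 25.5 CPM, and the gap to the next SAH mouse was 0.879 of the range. In the same mouse Cdkn1a had 67.6 CPM (0.985 of the range) and Tsc22d3, which encodes a glucocorticoid-induced leucine zipper protein, had 123 CPM (0.836 of the range), against 51.8 to 63.6 CPM in the other SAH mice. Fkbp5 was lowest of the 6 control mice in Sham mouse 5, at 42.4 CPM (0.705 of the range).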

How the results depend on the processing

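No paired analysis was possible because the animal numbers in the labels are all different and no group shares a number with another. Over all genes, SAH against control called 470 higher and 231 lower genes. Sham mice alone as control gave 12 and 0, Naive mice alone 201 and 81, an adjusted p under 0.05 gave 277 and 92, and DESeq2 called 398 lower. With each mouse left out in turn the numbers ran from 223 to 686 higher and from 85 to 407 lower. The 0 calls among the 10 clock genes became 1 higher with DESeq2, and 0 to 3 higher and 0 to 1 lower with single mice left out. In SAH against Naive they became 2 higher with DESeq2, 1 with its size factors, 1 with library size alone, 1 without a filter, and 0 to 1 with single mice left out. The test of any difference gave 0 to 1 with single mice left out. The 1 higher call among other clock genes became 0 with Sham mice alone, with Naive mice alone and under the threshold of 0.05, and the 1 lower call became 0 with either control alone. With single mice left out there were 0 to 2 higher and 1 to 2 lower. The 2 relations of Arntl past the threshold became 0 with groups centred, 1 with library size alone and 1 to 4 with single mice left out. The cause was not tested.

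Signs changed for the following values. In SAH against control, Clock had a log2 fold change of 0.002 with library size alone and 0.007 with Naive mice alone, and Nr1d1 had 0.024 with Naive mice alone. With single mice left out the ranges were −0.016 to 0.01 for Clock, −0.32 to 0.041 for Per1, −0.053 to 0.03 for Nr1d1 and −0.039 to 0.76 for Ciart. They were −0.051 to 0.057 for Dbp in SAH against Sham and −0.11 to 0.017 for Cry1 in Sham against Naive. For correlations they were −0.28 to 0.29 for Arntl with Clock, −0.48 to 0.23 with Per1 and −0.62 to 0.14 with Nr1d1, and −0.43 to 0.60 for Per1 with Fkbp5. For Per1 with Fos over all mice, which is not used because Fos separates the groups, the range was −0.13 to 0.81, and the value with groups centred was −0.12. The small number of mice limits what could be seen: for Per1 the interval in SAH against control spans −0.45 to 0.26.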

Other observations

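Rhythms of body temperature also reach tissues through cold- and heat-responsive genes. Of 8 such genes listed, 0 passed the threshold in SAH against control (edgeR, against 4.68% of all genes), and 0 had an unadjusted p under 0.05 (against 17.0%), with log2 fold changes between −0.13 and 0.23. The smallest p-values were those of Dnajb1, a heat shock protein 40 gene (log2 fold change −0.13, adjusted p = 0.475), Rbm3, a cold-inducible RNA-binding protein gene (0.23, adjusted p = 0.53), and Hspa1a, a heat shock protein 70 gene (0.16, adjusted p = 0.591). Rbm3 ranged from 33.8 to 76.0 CPM over the SAH mice, highest in SAH mouse 3, and from 35.0 to 51.6 CPM over control mice. Of 4 genes that mark the suprachiasmatic nucleus, the site of the central clock, 1 had enough counts to be tested. This was Vip, which interneurons of the hippocampus also express, at 15.5 to 23.2 CPM over the 10 mice (log2 fold change 0.16 in SAH against control, adjusted p = 0.487, edgeR). The other markers reached at most 0.301 CPM in any mouse for Avp, 0.0368 for Nms and 0.657 for Prok2, so the summed level, 15.9 to 24.1 CPM in SAH and 15.8 to 20.6 CPM in control mice, was almost wholly that of Vip.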
